A study of Sus scrofa with 20 samples.

Results

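Coagulation factors are plasma proteins that turn soluble fibrinogen into a fibrin clot, and 10 of their genes were followed in backfat and liver of Nanchukmacdon pigs. The genes were the 3 fibrinogen chains FGA, FGB and FGG, the vitamin K-dependent proteins F2, F7, F9, F10 and PROC, the cofactor F5, and F3, which encodes tissue factor. They were taken by symbol from a table of read counts for 31907 genes. Pig Ensembl identifiers came from a reference table of gene names for 9 of them, and from the study's own gene lists for FGA. All 10 had an identifier in the count table, and all 10 passed the filter on low counts. The RNA-seq data hold 5 backfat and 5 liver libraries, described by the labels as wild type and normal, from pigs of 22 months, and the study calls the animals boars. The study's text gives another average age. Column names give the numbers 65, 67, 69, 71 and 72 in each tissue, and each library is called by its tissue and that number. The numbers were taken as boar numbers, which the labels do not state. The numbers could not be matched to the replicate numbers of the labels. The p-values measure the spread between these libraries, all from pigs of 1 breed.

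Blood clotting starts when tissue factor, a membrane protein of cells outside the vessel lumen, binds activated factor VII. The complex activates factors IX and X, and activated factor X with its cofactor, activated factor V, turns prothrombin into thrombin, which cuts fibrinogen. Protein C, once activated by thrombin, inactivates activated factors V and VIII. Hepatocytes make most of these plasma proteins, whereas tissue factor is made by many cells around vessels and is low in hepatocytes.

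Libraries held between 43820042 and 61772737 counts. Adipocyte markers summed to between 13066 and 17195 CPM (read counts scaled to library size with edgeR's TMM factors) in backfat against 17.7 to 27.4 in liver, and all 8 of them were called higher in backfat. Hepatocyte markers summed to between 33285 and 129524 CPM in liver against 181 to 615 in backfat, and all 12 were called higher in liver. The entry matched to SERPINA1 was low even in liver, with a mean of 12.9 CPM where ALB had 32750, so it is a weak marker here. Most of the sum in backfat came from APOA1, at 167 to 482 CPM. In 2 libraries the marker levels stood apart. Backfat 69 had the highest hepatocyte sum of the backfat libraries (615 CPM, the others 181 to 227). ALB alone was at 36.4 CPM there and at most at 0.351 in the other backfat libraries. Liver 67 had the lowest hepatocyte sum of the liver libraries (33285 CPM, the others 104603 to 129524), 44.5% of its counts came from the mitochondrial genome (the other liver libraries 6.38% to 20.2%), and its red cell markers summed to 1764 CPM (the others 71.3 to 372). Member folds that moved by over 1.5 times without 1 of these libraries are given with and without it.

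The upstream sequences of the fibrinogen genes and of F3 are shown because the former were called higher in liver and F3 was the member called higher in backfat. Each is the 200 bases directly before the annotated gene start in RefSeq on Sscrofa11.1, read 5′ to 3′ on the strand of the gene. The windows are chr8:74574670-74574869 for FGA (plus strand), chr8:74607410-74607609 for FGB (minus strand), chr8:74552840-74553039 for FGG (plus strand) and chr4:122826818-122827017 for F3 (plus strand). Capitals mark an exact match to the C/EBP motif TTGCNNAA on either strand, and in FGA also a match to the HNF4 core AAAGTCC, which is the first run of capitals there.
FGA: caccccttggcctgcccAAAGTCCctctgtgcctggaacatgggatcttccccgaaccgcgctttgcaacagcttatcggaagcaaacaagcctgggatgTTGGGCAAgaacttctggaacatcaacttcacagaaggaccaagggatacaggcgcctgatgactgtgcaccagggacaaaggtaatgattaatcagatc
FGB: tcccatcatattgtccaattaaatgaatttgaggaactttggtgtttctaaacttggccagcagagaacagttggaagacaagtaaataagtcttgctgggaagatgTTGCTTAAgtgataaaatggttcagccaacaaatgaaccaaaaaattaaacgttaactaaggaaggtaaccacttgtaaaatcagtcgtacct
FGG: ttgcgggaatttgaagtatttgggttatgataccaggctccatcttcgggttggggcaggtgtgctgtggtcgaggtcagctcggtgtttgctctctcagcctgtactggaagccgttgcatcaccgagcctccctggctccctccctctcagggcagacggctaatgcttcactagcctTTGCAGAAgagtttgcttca
F3: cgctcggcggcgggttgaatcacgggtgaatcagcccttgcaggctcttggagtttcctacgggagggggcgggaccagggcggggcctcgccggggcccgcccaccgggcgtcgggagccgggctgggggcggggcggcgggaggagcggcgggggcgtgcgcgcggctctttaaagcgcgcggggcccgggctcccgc
C/EBP, HNF1, HNF4 and FOXA proteins are transcription factors known for their part in hepatocyte gene expression. Matches were counted from 250 bases before to 50 bases after the gene start, a window of 300 bases. The C/EBP motif was found in 5 of the 10 windows (FGA, FGB, FGG, F9 and PROC) and in 9.45% of the windows of 19531 protein-coding genes. The HNF4 core AAAGTCC was found only in FGA among the 10 (3.38% of all windows). GTTAAT, which is only a part of an HNF1 site, was found only in F2 (6.45%). Both were searched as exact letters on both strands. Whole HNF1 sites and inexact matches were not searched, so the other windows cannot be said to lack HNF1 sites. Neither the FOXA motif TGTTTAC (both strands, 2.65% of all windows) nor TATAAA (forward strand, 6.95%) was found in any of the 10 windows. No matches of different motifs overlapped in the 10 windows. The F3 window had a GC content of 77.3% and 39 CpG dinucleotides, against a median of 58.7% and 16 over all windows, and FGB had the lowest GC content of the 10 at 35.7%, with 3 CpG. A match is a description of the letters and does not show that a factor binds there.

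In liver, the members held between 0.947% and 4.0% of all counts of a library, and the 3 fibrinogen chains alone held between 0.653% and 3.35%. In backfat the members held between 0.0136% and 0.0306%. A gene was called different between the tissues at an adjusted p of at most 0.05 (edgeR's quasi-likelihood test, Benjamini-Hochberg over 16275 genes) with a log2 fold change of 2 or more in size, and negative values mean lower in backfat. Of the 10 members, 8 were called higher in liver, where 11.2% of all genes tested were. F3 was the 1 member called higher in backfat, where 11.1% of all genes were. F5 passed the adjusted p but not the fold, so that all 10 members passed the adjusted p, as did 55.0% of all genes. For the 8 members called higher in liver, every liver library lay above every backfat library, which held for 19.7% of all genes. For F3, every backfat library lay above every liver library (22.9% of all genes). The median log2 fold change was -10.61 over the members and 0.00 over all genes. In bulk tissue, fewer cells of a type and less RNA per cell cannot be told apart.

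**Figure D1:**
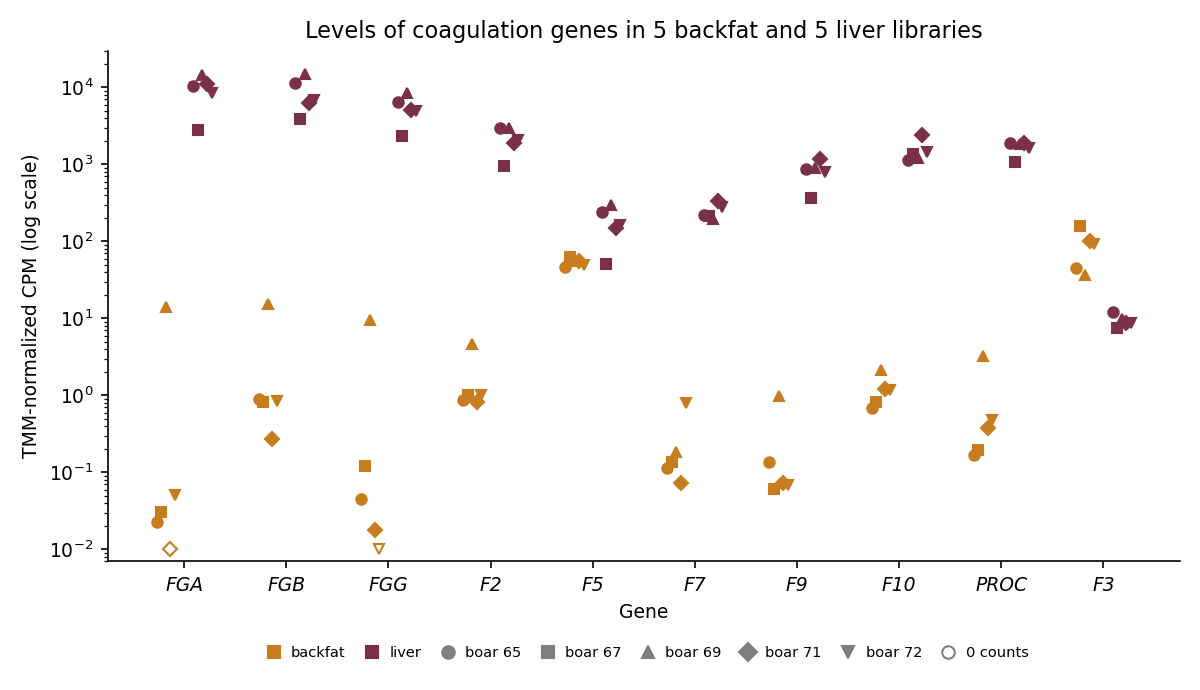
Levels of the 10 genes (TMM-normalized CPM, log scale) in each of the 5 backfat and 5 liver libraries, with 1 symbol shape per boar and open symbols at the lower edge for libraries with 0 counts. F5 is the gene whose tissues overlap, F3 is the gene that is higher in backfat, and backfat 69 lies above the other backfat libraries for FGA (14.2), FGB (15.5) and FGG (9.52).

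The fibrinogen chains were the most abundant members in liver. FGA (ENSSSCG00000008998, chromosome 8, 74574870 to 74584202, plus strand) encodes the Aα chain. Its level in liver was 10547 CPM in library 65, 2844 in 67, 14745 in 69, 11165 in 71 and 8405 in 72, with a mean of 9541 ± 4384 (SD, n = 5). In backfat it was 0.0226 CPM in 65, 0.0305 in 67, 14.2 in 69, 0 in 71 and 0.0515 in 72, which are 2, 2, 846, 0 and 3 counts. The groups did not overlap, liver 67 was the lowest of its group, and backfat 69 held nearly all backfat counts. The log2 fold change was -11.70 (SE 2.30, adjusted p = 0.000904 by edgeR), and without backfat 69 it was -18.34 (adjusted p = 6.45e-08), so that the size of the difference depended on that library and its direction did not.

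FGB (ENSSSCG00000008997, chromosome 8, 74598170 to 74607409, minus strand) encodes the Bβ chain. In liver it stood at 11383 CPM in 65, 3871 in 67, 15062 in 69, 6250 in 71 and 6901 in 72 (mean 8694 ± 4479, SD, n = 5). In backfat it stood at 0.902, 0.824, 15.5, 0.270 and 0.858 CPM in the same order of boars. Every backfat library had at least 15 FGB counts, so that FGB was detected in all of them, with 69 far above the rest. Its log2 fold change was -11.21 (SE 1.46, adjusted p = 3.27e-05 by edgeR), and -13.55 without backfat 69. FGG (ENSSSCG00000024314, chromosome 8, 74553040 to 74562151, plus strand) encodes the γ chain. Its liver levels were 6504, 2341, 8389, 5138 and 4994 CPM (mean 5473 ± 2220, SD, n = 5) and its backfat levels 0.0451, 0.122, 9.52, 0.0180 and 0 CPM for boars 65, 67, 69, 71 and 72. As for FGA, the backfat counts outside library 69 were few (4, 8, 1 and 0), and the tissues did not overlap. The log2 fold change of FGG was -11.46 (SE 2.07, adjusted p = 0.000471 by edgeR), and -16.72 without backfat 69.

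Secreted fibrinogen holds equal numbers of the 3 chains, and their transcripts were set side by side per length. With the union of exons that the count table gives as gene length (2982 bases for FGA, 5255 for FGB and 3337 for FGG), FGA made up 48.4% ± 6.51, FGB 25.7% ± 4.91 and FGG 25.9% ± 2.20 of fibrinogen counts per kilobase in liver (mean and SD, n = 5). With the longest RefSeq transcript as length (2994, 1991 and 2313 bases), the shares were 31.7% ± 6.15, 43.96% ± 6.16 and 24.4% ± 1.45. The order of FGA and FGB therefore depended on the length used, whereas the share of FGG moved by 1.55 points, less than its SD by exons and more than its SD by transcript. Within either length, liver 71 had the highest FGA share (57.8% by exons, 41.0% by transcript) and the lowest FGB share, and liver 67 had the lowest FGA share (39.9% and 24.3%). In backfat 69 the shares by exons were 45.2% for FGA, 27.8% for FGB and 27.0% for FGG, within the ranges over the liver libraries for all 3 chains. FGA has 2 annotated transcripts, and its protein was read from the longest coding sequence, a predicted one of 924 residues. Whether this is the common form of the Aα chain was not examined. The Bβ chain has 495 residues and the γ chain 438. Identity over aligned residues was between 32.7% and 38.7% among these 3 proteins.

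**Figure D2:**
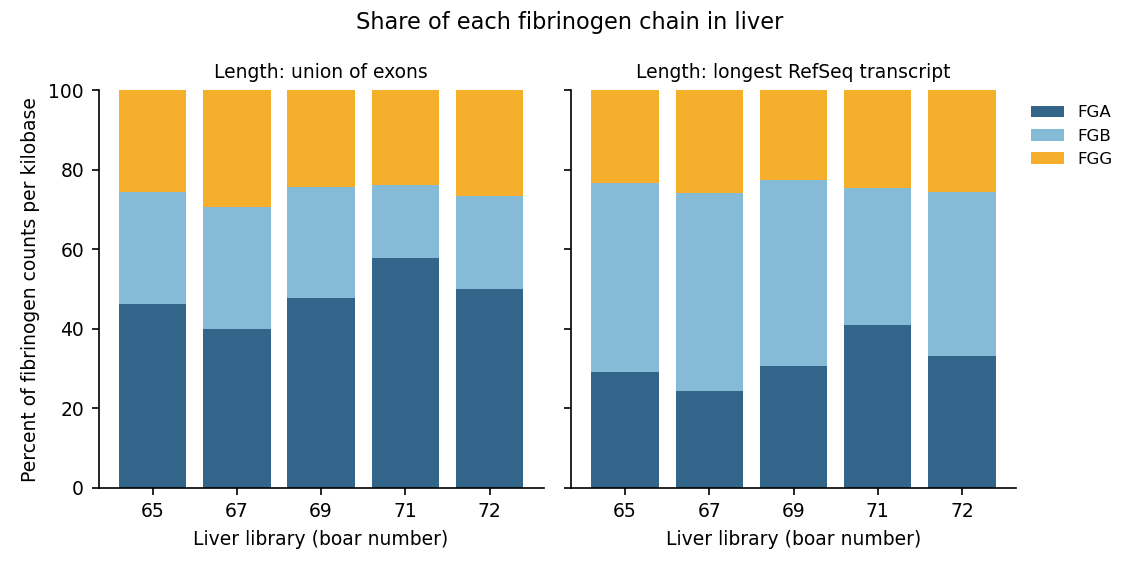
Share of each fibrinogen chain (percent of the summed counts per kilobase of FGA, FGB and FGG) in the 5 liver libraries, by the union of exons (left) and by the longest RefSeq transcript (right). The bars change with the length used, from a mean of 48.4% to 31.7% for FGA, and from 25.9% to 24.4% for FGG.

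The 3 fibrinogen genes lie together on chromosome 8 within 54.4 kb, with 12.7 kb between FGG and FGA and 13.97 kb between FGA and FGB. No other protein-coding gene is annotated between them. Of the genes on either side, 1 was called. LRAT, which makes retinyl esters, lies 124 kb from FGG. It stood at 5.59 ± 1.87 CPM in liver and 0.150 ± 0.0630 in backfat (SD, n = 5), and it was called higher in liver with a log2 fold change of -5.18 (SE 0.41, adjusted p = 5.03e-07). PLRG1, a splicing factor gene 7.51 kb from FGB, had 26.9 ± 2.65 CPM in liver and 25.0 ± 1.49 in backfat, and its log2 fold change was -0.11 (SE 0.13, adjusted p = 0.509).

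Prothrombin and its relatives carry a Gla domain, whose glutamates are carboxylated with the help of vitamin K, and a serine protease domain. In the RefSeq proteins, a script found the pattern E-x-x-x-E-x-C of the Gla domain and the active-site pattern G-D-S-G-G-P in F2, F7, F9, F10 and PROC and in none of the other 5 members. Their lengths were 623, 445, 462, 479 and 459 residues, and identity over aligned residues ran from 35.8% (F2 and F9) to 46.7% (F9 and F10).

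F2 (ENSSSCG00000013252, chromosome 2, 15793257 to 15819151, minus strand) encodes prothrombin. In liver, F2 was at 3019 CPM in 65, 969 in 67, 3009 in 69, 1899 in 71 and 2059 in 72. In backfat it was at 0.868, 1.02, 4.63, 0.829 and 1.03 CPM, which is a narrow range apart from library 69. The liver mean of 2191 ± 859 and the backfat mean of 1.67 ± 1.65 (SD, n = 5) gave a log2 fold change of -10.35 (SE 0.78, adjusted p = 3.04e-07 by edgeR), and -11.18 without backfat 69.

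F7 (ENSSSCG00000029503, chromosome 11, 78512389 to 78518668, plus strand) encodes factor VII, the partner of tissue factor. Liver libraries held 221, 214, 196, 338 and 282 CPM for boars 65, 67, 69, 71 and 72 (mean 250 ± 58.9, SD, n = 5), and liver 67 was not the lowest. Backfat libraries held 0.113, 0.137, 0.185, 0.0721 and 0.789 CPM, and here library 72, not 69, was the high one, with 46 counts against 4 to 11. The log2 fold change was -9.93 (SE 0.65, adjusted p = 1.02e-07 by edgeR), the smallest of the 8 members called higher in liver, and -10.91 without backfat 72.

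F10 (ENSSSCG00000009558, chromosome 11, 78521760 to 78538256, plus strand) encodes factor X and lies 3.09 kb from F7. Its liver levels were 1132, 1366, 1197, 2404 and 1461 CPM (mean 1512 ± 515, SD, n = 5), with library 71 well above the others. Library 71 was also the highest for F7, but closer to the next one (338 against 282 CPM). Its backfat levels were 0.688, 0.824, 2.15, 1.23 and 1.17 CPM, each from at least 54 counts. The log2 fold change was -10.29 (SE 0.51, adjusted p = 1.38e-08 by edgeR). The genes on either side of the F7 and F10 pair were not called. MCF2L, a nucleotide exchange factor gene, had 78.1 ± 12.6 CPM in liver and 46.7 ± 7.38 in backfat (log2 fold change -0.74, SE 0.17, adjusted p = 0.00236, under the fold threshold), and PCID2 had 27.1 ± 2.53 and 24.1 ± 0.667 CPM (log2 fold change -0.17, SE 0.13, adjusted p = 0.271).

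F9 (ENSSSCG00000012711, chromosome X, 114218704 to 114250436, plus strand) encodes factor IX, the protein that is missing in hemophilia B. In liver F9 was at 882, 371, 909, 1169 and 796 CPM, with library 67 the lowest, and in backfat at 0.135, 0.0610, 0.976, 0.0721 and 0.0686 CPM for boars 65, 67, 69, 71 and 72. Outside library 69 these backfat levels are 4 to 12 counts per library. The means were 825 ± 290 in liver and 0.263 ± 0.400 in backfat (SD, n = 5), and the log2 fold change was -11.62 (SE 0.97, adjusted p = 7.02e-07 by edgeR), or -13.16 without backfat 69. A predicted gene on the other strand overlaps F9 but shares no annotated exon bases with it.

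PROC (ENSSSCG00000023693, chromosome 15, 25043543 to 25054310, minus strand) encodes protein C, which limits clotting. It was at 1908, 1085, 1825, 1896 and 1622 CPM in liver, where the spread was the smallest of the 8 members called higher in liver (CV 20.7%). It was at 0.169, 0.198, 3.25, 0.378 and 0.480 CPM in backfat for the same boars, with library 69 again the highest. The liver mean of 1667 ± 345 and the backfat mean of 0.895 ± 1.32 (SD, n = 5) gave a log2 fold change of -10.87 (SE 1.03, adjusted p = 2.26e-06 by edgeR), and -12.42 without backfat 69. This anticoagulant lay on the same side of the tissue difference as the procoagulant F2, F7, F9 and F10.

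F5 (ENSSSCG00000006289, chromosome 4, 81403273 to 81484908, plus strand) encodes factor V, the cofactor of activated factor X. It was the member with the highest level in backfat apart from F3. Backfat held 46.4 CPM in 65, 62.9 in 67, 55.2 in 69, 56.6 in 71 and 49.5 in 72, from between 2885 and 4123 counts per library. Liver held 244, 51.4, 296, 150 and 165 CPM in the same order. The backfat libraries lay close together, the liver libraries ranged 5.75-fold, and liver 67 fell within the backfat range, so that the tissues overlapped. The means were 54.1 ± 6.42 in backfat and 181 ± 93.7 in liver (SD, n = 5), and the log2 fold change of -1.74 (SE 0.36, adjusted p = 0.00127 by edgeR) was under the fold threshold. Without liver 67 it was -2.01 (adjusted p = 8.51e-06) and past both thresholds. With scaling by library size alone it was -1.09, but that scaling also moved the median of all genes to 0.71. The part of the low hepatocyte marker level of liver 67 in the F5 value was not tested. Library 69, where hepatocyte markers were high, was in the middle of the backfat libraries for F5. A predicted RefSeq gene on the opposite strand overlaps F5 and shares 4 exon bases with it. Counting used the Ensembl annotation and no strand, by its recorded command. Reads from the opposite strand within F5 exons therefore cannot be told apart.

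F3 (ENSSSCG00000022447, chromosome 4, 122827018 to 122837673, plus strand) encodes tissue factor, the cell-surface starter of the cascade. In backfat it was at 45.2 CPM in 65, 158 in 67, 37.1 in 69, 102 in 71 and 92.1 in 72. In liver it was at 12.3, 7.51, 9.83, 8.75 and 8.76 CPM, from between 277 and 494 counts per library. The lowest backfat library, 69, was above the highest liver library, 65, and the backfat levels spread 4.25-fold where the liver levels spread 1.64-fold. The mean was 86.7 ± 48.7 in backfat and 9.43 ± 1.81 in liver (SD, n = 5), a ratio of 9.19, and the log2 fold change was 3.20 (SE 0.37, adjusted p = 1.22e-05 by edgeR). F3 was called higher in backfat with each of the 10 libraries left out in turn, with log2 fold changes between 2.88 and 3.40. Fibroblast markers, all 6 called higher in backfat, summed to between 46185 and 84623 CPM in backfat and between 755 and 1285 in liver, and their part in the F3 value was not tested.

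**Figure D3:**
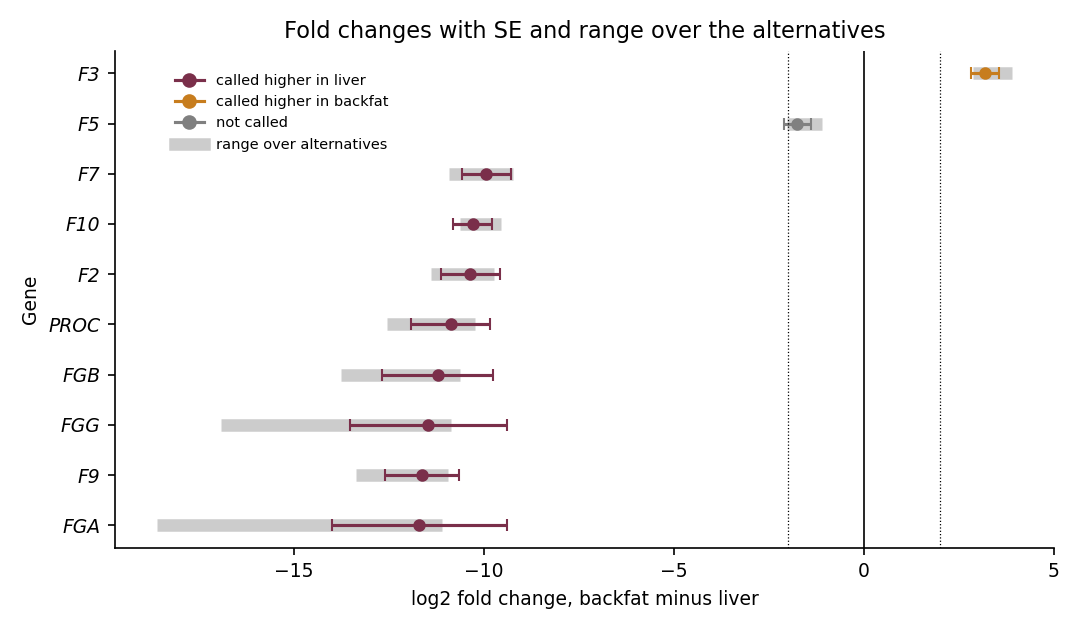
Log2 fold change (backfat minus liver) of each gene with its SE (bars), coloured by its call, and the range over all alternative settings (grey bands). Dotted lines mark the fold threshold of 2, F5 lies between them at -1.74, F3 lies on the other side of 0 at 3.20, and the widest band is that of FGA.

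Levels of different members can be compared per length only. By CPM per kilobase of exons, the liver means ran from FGA (3200 ± 1470) through FGB (1654 ± 852), FGG (1640 ± 665), F10 (756 ± 258), F2 (573 ± 225), F9 (282 ± 98.8), PROC (251 ± 51.9), F7 (148 ± 34.9) and F5 (25.0 ± 12.9) to F3 (5.11 ± 0.981, SD, n = 5). The ranges over the 5 libraries of each gene and the next overlapped down to F7, and they did not overlap between F7 and F5 or between F5 and F3, by either length. By the longest RefSeq transcript, FGB (4366 ± 2249) came before FGA (3187 ± 1464), and PROC moved from the seventh place to the fifth (948 ± 196), its exon union being 6646 and its transcript 1758 bases long, and here the ranges of F10 and F9 did not overlap either. The 3 fibrinogen genes were first and F7, F5 and F3 last by both lengths. In backfat the order began with F3 (47.0 ± 26.4 CPM per kilobase of exons) and F5 (7.47 ± 0.886), and the other 8 means were between 0.0895 and 0.961.

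The levels in backfat were then set as a percent of the liver mean of the same gene, beside the same value for the 12 hepatocyte markers. In backfat 69, FGA was at 0.149%, FGB at 0.178%, FGG at 0.174%, F2 at 0.211%, F9 at 0.118%, F10 at 0.142% and PROC at 0.195% of the liver mean. The hepatocyte markers in that library had a median of 0.128%, with 10 of the 12 between 0.0860% and 0.202%, and APOA1 (3.31%) and CYP2E1 (1.04%) above. The percents of these 7 members in this library differed by up to 1.79-fold, over a range that overlapped that of the markers, of which SERPINA1 rested on 1 count. F7, also called higher in liver, is not among these 7. It was at 0.0740% in backfat 69, below the lowest of the 12 markers there (0.0860%), and at 0.315% in backfat 72. The median of the markers in backfat 72 was 0.00275%.

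In the other 4 backfat libraries the members separated from each other. FGA was at most at 0.000539% and FGG at most at 0.00223% of the liver mean, where the medians of the hepatocyte markers were 0.000592% to 0.00275%. FGA lay below the marker median of its library in all 4, and FGG above it in 2. FGB was at 0.00311% to 0.0104%, F9 at 0.00739% to 0.0164% and PROC at 0.0101% to 0.0288%. F2 held between 0.0378% and 0.0470%, and F10 between 0.0455% and 0.0811%, in every one of these libraries. These 5 genes stood above the marker median of their library in all 4, and so did F7, at 0.0288% to 0.315%. APOA1 and CYP2E1, also listed as hepatocyte markers, held 0.620% to 1.46% in the same libraries. Of the other markers, TF held 0.0112% to 0.0122%, above FGB in all 4, and ASGR1 held 0.00503% to 0.0561%. Most of the remaining markers held less than TF. Some markers therefore lay as high as these members. The part that RNA from hepatocytes had in these low levels was not tested.

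**Figure D4:**
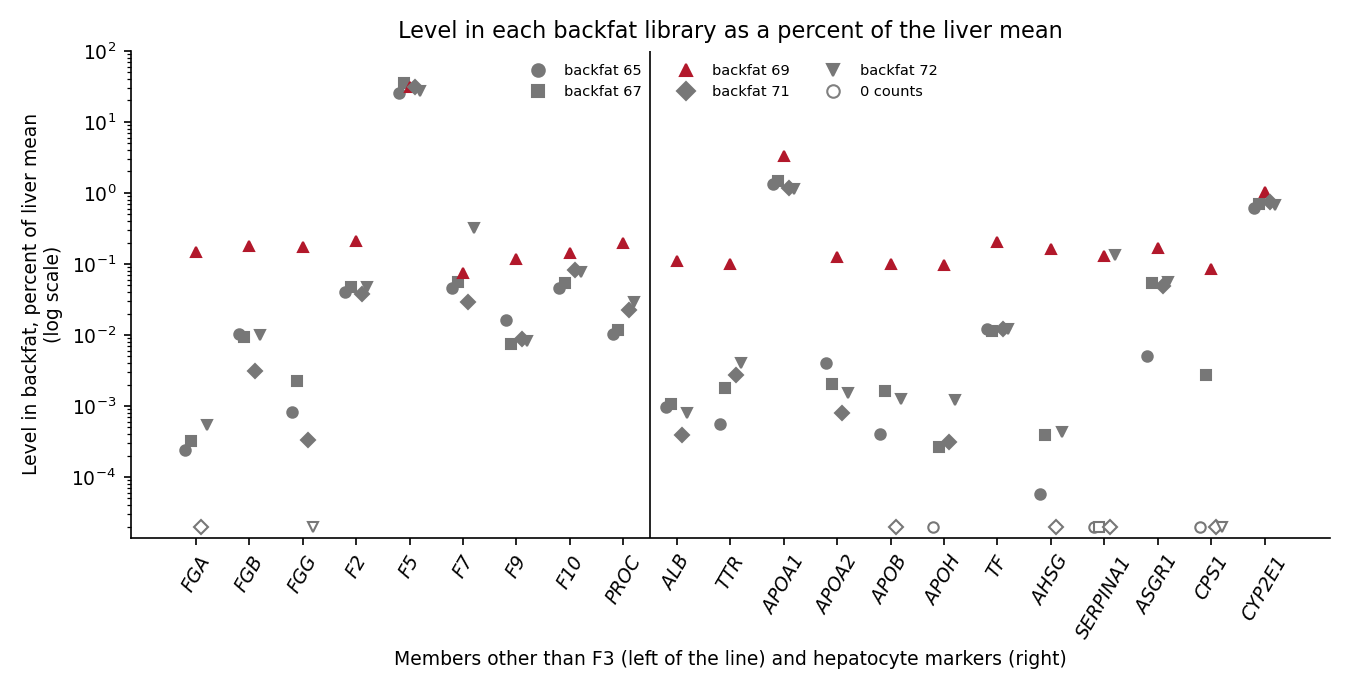
Level in each backfat library as a percent of the liver mean (log scale) for the members other than F3 (left) and the 12 hepatocyte markers (right), with backfat 69 in red and open symbols at the lower edge for 0 counts. In backfat 69 the points of FGA, FGB, FGG, F2, F9, F10 and PROC lie between 0.118% and 0.211%, beside a marker median of 0.128%. F7 lies lower there, at 0.0740%, and F5 lies between 25.6% and 34.7% in all 5 libraries.

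Within liver, the members differed in how far library 67 lay below the others. As a percent of the mean of the other 4 liver libraries, liver 67 held 25.4% for FGA, 39.1% for FGB, 37.4% for FGG, 38.8% for F2, 24.1% for F5 and 39.5% for F9. It held 59.8% for PROC, 82.5% for F7 and 88.2% for F10. The 12 hepatocyte markers were at 20.2% (TTR) to 76.2% (CPS1) of the other libraries, so that F7 and F10 lay above all 12 and the remaining liver members within their range. F3 was at 75.7%. Liver 67 was the lowest liver library for 8 of the 10 members, all but F7 and F10. The mitochondrial share of this library was the highest of the liver libraries, and its part in these values was not tested.

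The pathway around the members was described with 5 lists of other genes, 37 symbols in all, of which 32 had an identifier in the count table and 31 were tested. Of the 31, 13 were called higher in liver (41.9% against 11.2% of all genes), 7 higher in backfat (22.6% against 11.1%) and 11 were not called, with a median log2 fold change of -0.90. No identifier was found for THBD, PROZ, SERPINA10, GP1BA and VKORC1. Of the 8 other factors and contact system genes, 5 were called higher in liver and 1 in backfat, with a median log2 fold change of -9.45. F11, which encodes factor XI, had 0 counts in 4 backfat libraries and 0.235 CPM in backfat 69, against 180 ± 54.9 CPM in liver (log2 fold change -11.92, SE 0.87, adjusted p = 2.31e-07). Without backfat 69 all backfat libraries are at 0, and no fold is given. F12, the start of the contact system, had 714 ± 146 CPM in liver and 1.01 ± 0.382 in backfat (log2 fold change -9.46, SE 0.38, adjusted p = 3.42e-09). The subunits of factor XIII, which crosslinks fibrin, separated. F13B, the carrier subunit, was called higher in liver (118 ± 34.9 against 0.0843 ± 0.179 CPM, log2 fold change -10.50, and -14.21 without backfat 69), and F13A1, the enzyme subunit, was at 19.8 ± 4.97 CPM in backfat and 7.17 ± 4.63 in liver (log2 fold change 1.47, SE 0.35, adjusted p = 0.00357), under the fold threshold.

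F8, whose product works with factor IX as factor V does with factor X, did not pass the test. It was at 63.5 ± 19.9 CPM in backfat and 66.3 ± 17.6 in liver, with overlapping libraries and a log2 fold change of -0.06 (SE 0.24, adjusted p = 0.843). VWF, the carrier of factor VIII and a product of endothelium, whose identifier came from the study's gene lists, was called higher in backfat (373 ± 91.6 against 25.2 ± 12.8 CPM, log2 fold change 3.89, SE 0.36, adjusted p = 1.79e-06). Endothelial markers summed to between 727 and 1339 CPM in backfat and between 171 and 244 in liver, and 3 of the 6 were called higher in backfat. VWF and these markers therefore moved to the same side, and the part of endothelial content in the VWF value was not tested. Of the 4 matched platelet markers, 1 had 0 counts in every library, and their sum was at most 2.07 CPM in any library.

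Among the anticoagulants, 3 of 7 tested genes were called higher in liver and 1 in backfat (median log2 fold change -0.90). SERPINC1, which encodes antithrombin, the inhibitor of thrombin and activated factor X, had 2513 ± 1273 CPM in liver and 1.08 ± 1.49 in backfat (log2 fold change -11.19, SE 1.07, adjusted p = 2.45e-06), and without backfat 69 its backfat mean was 0.412 ± 0.0761 and its log2 fold change -12.57. SERPIND1, heparin cofactor II, was at a log2 fold change of -12.06 (SE 1.36, adjusted p = 1.00e-05), and -14.64 without backfat 69. TFPI, the inhibitor of the complex of tissue factor and factor VII, was higher in backfat, on the side of F3. It had 8.04 ± 4.29 CPM in backfat and 1.40 ± 0.582 in liver, with a log2 fold change of 2.52 (SE 0.41, adjusted p = 0.000193), and its call was lost under 1 of 20 alternatives, glmTreat. PROCR, the endothelial receptor of protein C, was at 11.04 ± 3.97 and 4.01 ± 1.14 CPM (log2 fold change 1.46, adjusted p = 0.00109), and PROS1, its cofactor protein S, at 124 ± 15.8 and 232 ± 106 CPM (log2 fold change -0.90, adjusted p = 0.0311). Both passed the adjusted p and not the fold, but without backfat 69 PROS1 no longer passed the adjusted p (0.0544 by edgeR). PROS1 resembled F5 in its levels by library, with 78.5 CPM in liver 67 and 193 to 343 in the other liver libraries.

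Of the 3 genes tested from the list of thrombin receptors and their relatives, 2 were called higher in backfat (median log2 fold change 2.26). F2RL1, a related receptor gene, was not called (log2 fold change -0.27, SE 0.49). F2R, the main thrombin receptor of vessel cells, was at 5.06 ± 2.92 CPM in backfat and 1.05 ± 0.652 in liver (log2 fold change 2.26, SE 0.57, adjusted p = 0.00485), and its call was lost under 3 of 19 alternatives. F2RL2, another protease-activated receptor gene, had the largest change of this list, with 71.5 ± 32.3 CPM in backfat against 0.105 ± 0.0981 in liver (log2 fold change 9.34, SE 0.57, adjusted p = 5.75e-08). The genes that process and export the factors were present in both tissues, and 1 of 5 was called. GGCX, the carboxylase that makes Gla residues, was at 84.9 ± 6.77 CPM in backfat and 101 ± 42.4 in liver (log2 fold change -0.25, SE 0.28, adjusted p = 0.469), and it did not pass the test. FURIN, a propeptide-cutting protease, was called higher in liver at a log2 fold change of -2.03 (SE 0.28, adjusted p = 5.40e-05), close to the threshold. Its call was lost under 9 of 20 alternatives, with values between -2.25 and -1.33.

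The list for fibrinolysis, the dissolving of the clot, also holds genes that restrain it. Its genes fell on both sides, with 4 of 8 called higher in liver and 3 in backfat (median log2 fold change -4.26). PLG, which encodes plasminogen, was at 2631 ± 1143 CPM in liver and 0.868 ± 1.65 in backfat (log2 fold change -11.57, SE 1.49, adjusted p = 3.10e-05), and backfat 69 was again the high library (3.82 CPM, the others 0.0343 to 0.270). Without that library its backfat mean was 0.130 ± 0.101 and its log2 fold change -14.29. PLAT, the tissue-type plasminogen activator gene, was called higher in backfat, at a log2 fold change of 3.60 (SE 0.39, adjusted p = 7.62e-06). Its backfat levels were between 26 and 51.2 CPM, and its liver levels were 6.62 CPM in library 67 and between 1.8 and 2.25 in the others, so that the tissues did not overlap.

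**Figure D5:**
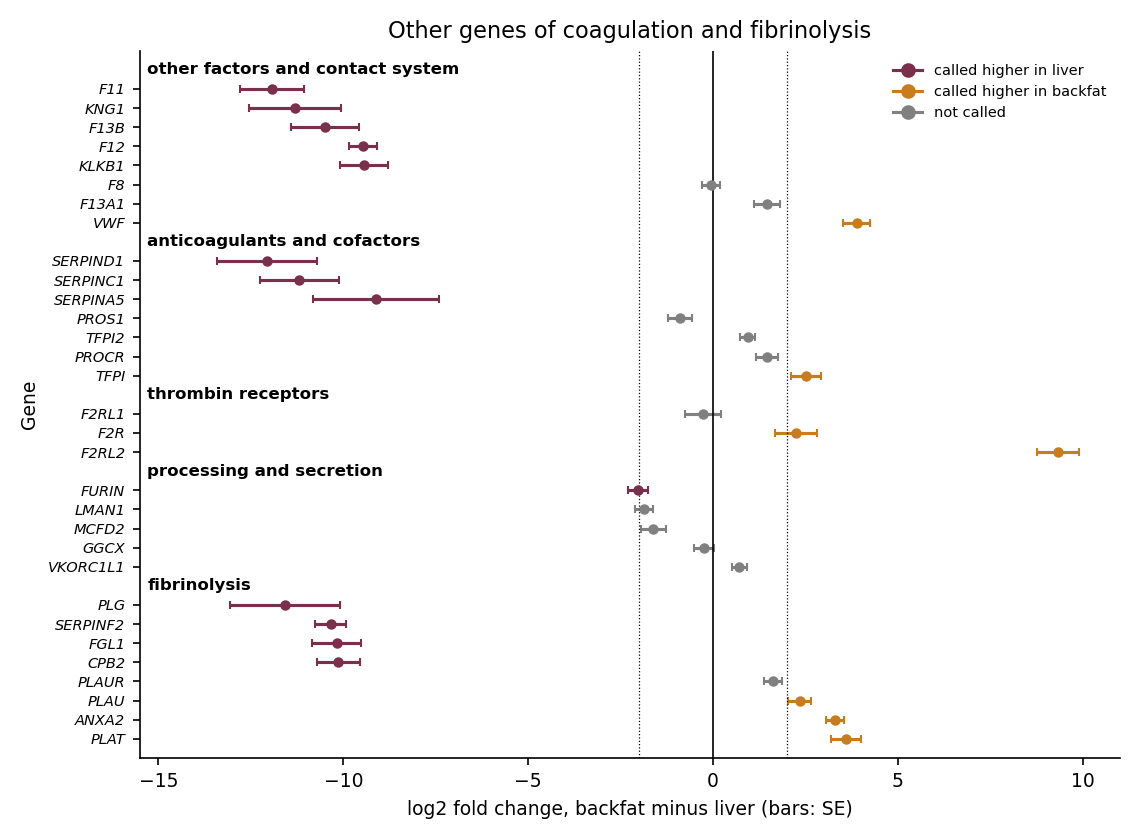
Log2 fold change (backfat minus liver) with SE of the 31 other genes tested, grouped by list and coloured by their call, with dotted lines at the fold threshold of 2. Of the 31 genes, 13 lie to the left as called higher in liver and 7 to the right as called higher in backfat, and F2RL2 is the farthest to the right at 9.34.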

How the data were processed

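RNA was sequenced from backfat and liver, with 5 libraries each. The authors used Trimmomatic for trimming, HISAT2 for alignment to Sscrofa11.1, and featureCounts 2.0.1 with Ensembl release 99, without strand, for the deposited counts (per the file headers and the study's methods). The values are raw counts per gene, and no column of per-sample values was left out. Whole-genome bisulfite calls of 10 further libraries carry no genomic position and were not used here.

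The main test was the two-sided quasi-likelihood test of edgeR 4.0.16 in R 4.3.3, with filterByExpr by tissue, TMM scaling, no term but tissue, and Benjamini-Hochberg adjustment over 16275 genes. Calls needed an adjusted p up to 0.05 and a log2 fold change of 2 or more in size. Adjusted p-values are from this test. SEs were taken from the fold change and the F statistic. Alternatives were other scalings, filters and tests (DESeq2 1.42.0, limma 3.58.1 with voom, glmTreat), removal of the mitochondrial genes, the boar as a block and each library left out. Leaving out both backfat 69 and liver 67 was added after seeing the data. The tools were tested on simulated counts.

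Named genes were all 10 members, a fixed set from the pathway lists, the called gene with the largest fold change of each list in each direction, and the neighbours of the gene clusters. A gene that this rule names is not reported here, and the lists were counted without it. Members and lists were chosen with earlier results of these data known, and support nothing by being chosen. The same number in both tissues was taken as the same boar, which neither the column names nor the labels state. Deviations of backfat and liver of the same number from the tissue means correlated at 0.0270 to 0.220 across genes (log2 CPM with a pseudocount of 1). Of the 5 numbers, 3 correlated best with their own, and how many would do so by chance was not tested. Gene models, promoters and proteins were read from RefSeq on Sscrofa11.1, the build of the authors, with Biopython 1.88, and figures were drawn with matplotlib 3.10.9.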

Additional observations from a re-analysis of the deposited data

Results flagged for a closer look

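Levels of 31 named genes were examined within each tissue for a library that stood apart, which gave 62 groups of 5 libraries, and 16 of them held one. The limit used (Dixon's, at 95%) sets about 1 in 20 independent groups of normally distributed values apart by chance. Here the groups share the same 10 libraries, and some hold mostly 0 or few counts, as F11 does in backfat. That rate therefore does not carry over to them, and the number of them was not tested. Backfat 69 was the library in 11 of the 16, high each time. Among the members these were FGA at 14.2 CPM (the other backfat libraries at most 0.0515), FGB at 15.5 (at most 0.902), FGG at 9.52 (at most 0.122), F2 at 4.63 (at most 1.03), F9 at 0.976 (at most 0.135) and PROC at 3.25 (at most 0.480). Among the other genes these were F11 at 0.235, F13B at 0.404, SERPINC1 at 3.73, PLG at 3.82 and SERPIND1 at 1.80 CPM. Hepatocyte markers were also highest in this library, and their part in these values was not tested.

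In backfat 72, F7 stood at 0.789 CPM (the others at most 0.185). In liver 71, F10 stood at 2404 CPM (the others 1132 to 1461). In liver 67, F13A1 stood at 15.3 CPM (the others 4.14 to 6.48) and PLAT at 6.62 CPM (the others 1.8 to 2.25). In backfat 67, PLRG1 stood at 27.6 CPM (the others 23.8 to 24.8).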

How the results depend on the processing

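For the log2 fold changes of the 10 members, the direction was kept in all 196 combinations of member and alternative that gave a value, and the call in 195. The exception was F5 without liver 67, at -2.01. The number of members called higher in liver was 8 except without liver 67, where F5 made it 9, and under the filter of 10 counts in each library, which left 6 members tested and 4 of them called. With that filter 7 pathway genes were called higher in liver (22 tested), and glmTreat called 4 higher in backfat. Leaving out 1 library at a time gave 8 to 9 members higher in liver and 1 in backfat. Leaving out backfat 69 and liver 67 together, an alternative chosen after seeing the data, gave 8 and 1 as well, with F5 at -1.99. Fold sizes moved most without backfat 69, by over 1.5 times for FGA (-18.34), FGB (-13.55), FGG (-16.72), F2 (-11.18), F9 (-13.16) and PROC (-12.42), and without backfat 72 for F7 (-10.91). Library size alone as the scaling moved the median of all genes to 0.71, F5 to -1.09 and F3 to 3.89. Relative to that median F3 was still higher in backfat and F5 still lower. By the length of the longest transcript, the chain shares were 31.7% for FGA and 43.96% for FGB, and leaving out 1 liver library gave 46.0% to 50.5% for FGA, 24.4% to 27.6% for FGB and 25.0% to 26.4% for FGG.

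With the boar as a block (the pairing by column name), 8 members were called higher in liver and 1 in backfat, as without it, and the block moved the fold changes of FGA to -16.51 and of FGG to -15.28. The block changed no call among the members, and it gave 12 pathway genes called higher in liver.

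Depth limits the lowest values. FGA, FGG, F7 and F9 had under 10 counts in some backfat libraries, and 0 counts allows up to 3. Intervals of this kind cover counting error only.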
